A study of Homo sapiens with 5 samples.

Results

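Thrombospondins and other matricellular proteins were examined in MCF10A SAM cells in which the transcription factor JUN was raised from its own promoter. The set held 10 genes of the 23459 in the count table: THBS1, THBS2, THBS3, SPARC, TNC, POSTN, SPP1, FBLN1, TGFBI and CD47. The set was chosen by the level of THBS1 in this same comparison, where it was lower in sgJUN#1 cells in every fit. The other genes of the set were added as proteins of the same kind and as the THBS1 receptor CD47. The values of THBS1 are therefore given as a description with no test, and the other members are read from the test over all genes. MCF10A is an immortalised human mammary epithelial line, and SAM cells are clones of it, each grown from 1 cell, that carry the activators dCas9-VP64 and MCP-p65-HSF1. Both groups carried these activators and differed in the guide RNA, which was a non-targeting control (NTC, 3 libraries) or sgJUN#1, directed to the JUN promoter (2 libraries). RNA was measured by sequencing from the 3′ ends of transcripts, and the comparison asks which transcripts change when JUN is raised.

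Matricellular proteins are secreted into the extracellular matrix but do not build its scaffold. They bind cell surface receptors, growth factors and collagens, and so adjust adhesion, migration and growth factor activity. Thrombospondin-1, the product of THBS1, binds CD47, CD36, integrins and syndecans, releases TGF-beta from its latent complex and inhibits the growth of blood vessels. THBS1, SPARC and several other genes of this kind are known targets of the Hippo pathway, in which the co-activators YAP and TAZ act through TEAD factors on DNA. JUN is a subunit of the AP-1 factors, which bind a different short element. In this tissue, such proteins lie in and around the basement membrane beneath the epithelium.

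Library totals ranged from 2455627 to 4988062 counts. JUN was at 25.0, 36.2 and 9.32 counts-per-million (CPM, scaled by TMM to correct for composition) in NTC replicates 1 to 3 and at 171.5 and 265.5 CPM in the sgJUN#1 libraries, so the targeted gene was higher in both libraries that carried its guide. Its log2 fold change was 3.25 (SE 0.484), which missed the threshold of 0.05 over all genes (edgeR quasi-likelihood test, adjusted p = 0.0733). JUN passed in 4 of 14 other fits, among them those without NTC replicate 2 (edgeR adjusted p = 0.0144) and without NTC replicate 3 (0.00121). The exact two-sided permutation test over libraries gave p = 0.1, the smallest value that 3 against 2 libraries allow. The epithelial markers EPCAM and CDH1 were present at 18.1 and 41.0 CPM in NTC. KRT14, a keratin of basal cells, was at 2.78 CPM, whereas the epithelial markers KRT5 and LAMB3 were at 274.7 and 320.4 CPM. KRT17, TP63, KRT8 and KRT18 were at 3.49, 5.45, 20.5 and 40.9 CPM in NTC, so the levels of these markers differed widely. A list of 9 epithelial markers summed to between 468.7 and 952.0 CPM in NTC and to 1175 and 745.6 CPM in sgJUN#1, and none of the 9 passed in edgeR, with 1 at an unadjusted p under 0.05. That 1, EPCAM, was at 23.7, 7.33 and 23.3 CPM in NTC, against 143.9 and 56.5 CPM in sgJUN#1, and was called by DESeq2 (adjusted p = 2.97e-05, edgeR adjusted p = 0.210). Its part in the levels of the members was not tested.

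The promoters of 4 members are shown first, as 250 bases before the RefSeq start site on GRCh38.p14, because the study concerns factors that bind such elements. THBS1 and FBLN1 are shown as the 2 tested members whose sgJUN#1 libraries both lay below all NTC libraries, and SPARC and THBS2 as the other members that hold the TEAD letters. Capitals mark GGAATG, read on either strand (CATTCC on the opposite one), and the TATA letters TATAAA.
THBS1, chr15:39580829-39581078, plus strand: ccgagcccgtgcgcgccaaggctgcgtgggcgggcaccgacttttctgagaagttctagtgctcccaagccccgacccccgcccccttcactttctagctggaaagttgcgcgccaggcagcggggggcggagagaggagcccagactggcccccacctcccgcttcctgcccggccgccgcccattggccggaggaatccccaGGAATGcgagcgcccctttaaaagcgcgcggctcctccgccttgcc
SPARC, chr5:151686916-151687165, minus strand: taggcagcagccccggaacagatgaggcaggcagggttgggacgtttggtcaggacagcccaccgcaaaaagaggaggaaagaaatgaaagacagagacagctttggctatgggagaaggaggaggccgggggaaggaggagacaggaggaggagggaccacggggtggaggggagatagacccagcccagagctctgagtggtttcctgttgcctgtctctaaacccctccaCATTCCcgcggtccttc
THBS2, chr6:169253847-169254096, minus strand: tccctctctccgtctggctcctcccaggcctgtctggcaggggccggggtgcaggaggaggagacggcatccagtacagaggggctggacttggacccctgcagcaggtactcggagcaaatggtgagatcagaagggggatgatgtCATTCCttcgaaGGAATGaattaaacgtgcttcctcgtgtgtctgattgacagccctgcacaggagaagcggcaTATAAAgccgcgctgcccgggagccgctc
FBLN1, chr22:45502633-45502882, plus strand: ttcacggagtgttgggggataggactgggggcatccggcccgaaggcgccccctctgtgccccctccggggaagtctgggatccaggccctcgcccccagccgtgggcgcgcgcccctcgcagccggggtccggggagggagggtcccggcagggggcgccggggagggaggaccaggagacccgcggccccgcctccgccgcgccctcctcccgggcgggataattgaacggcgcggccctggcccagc
GGAATG was found in the promoters of 3 of the 10 members, against 11.9% of all 35116 promoters of the same length. In THBS1 it began 46 bases before the start site, in SPARC 17 bases before, and THBS2 held a pair on opposite strands, at 103 and 91 bases. The AP-1 letters TGANTCA were found in POSTN alone, and in 6.57% of all promoters. TATAAA was found in THBS2 and POSTN, and in 10.7% of all. FBLN1 held none of the 3. A match of letters is not a site, and windows other than these were not searched. The study proposes that JUN restrains YAP at enhancers distant from start sites, which these windows do not cover.

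THBS1 (Entrez 7057, GRCh37 chromosome 15, 39873280 to 39891667, plus strand) encodes thrombospondin-1, and it is the gene on which the set was chosen. It had 810, 688 and 806 counts in NTC replicates 1 to 3 and 113 and 74 counts in sgJUN#1 replicates 1 and 2. On the CPM scale these were 222.8, 280.0 and 178.8 in NTC and 23.3 and 26.5 in sgJUN#1. The lowest NTC library was far above both sgJUN#1 libraries, and the latter stood at 10.3% and 11.7% of the NTC mean. The NTC mean was 227.2 ± 50.8 CPM (SD, n = 3) and that of sgJUN#1 24.9 ± 2.23 CPM (SD, n = 2), a level 9.13-fold lower. As a log2 fold change this was −3.19 (SE 0.268, 95% interval −3.79 to −2.59), and it ranged from −3.34 to −3.02 over 14 other fits. The set was chosen on the fall of THBS1 in every fit, so neither the interval nor this range tests that fall. The gene FSIP1 overlaps THBS1 on the opposite strand and had at most 22 counts in any library.

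**Figure D1:**
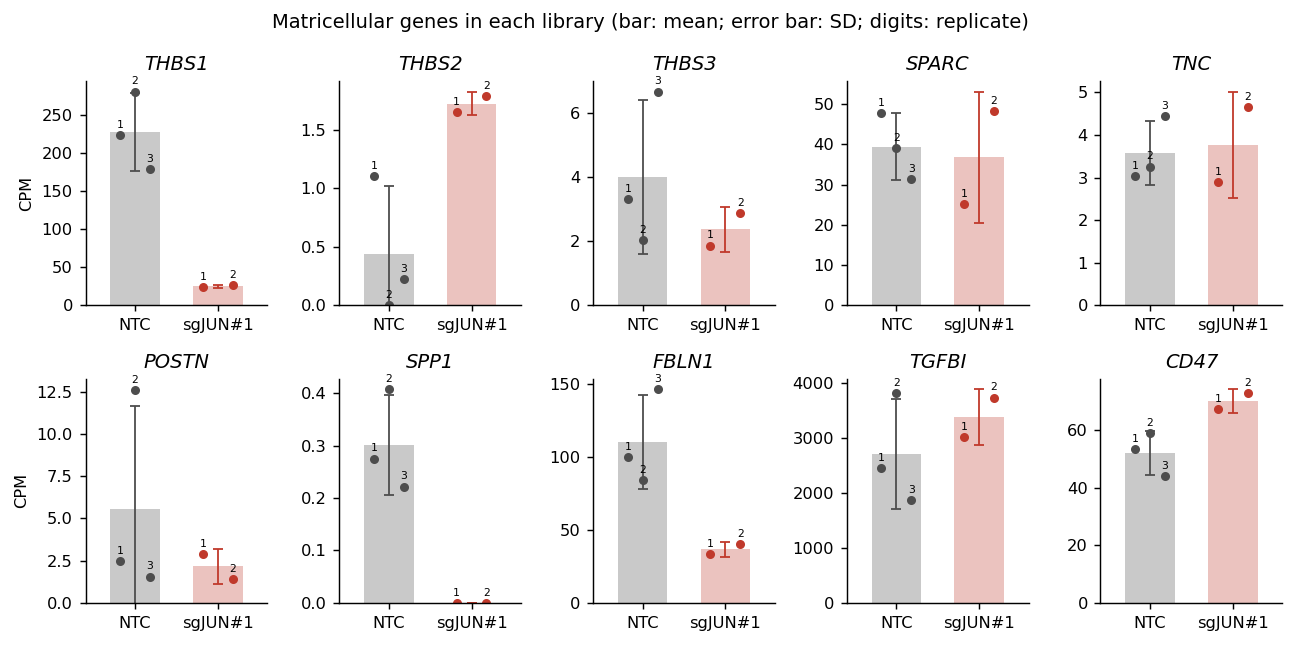
CPM (vertical axes, each from 0) of the 10 members in NTC and sgJUN#1 cells, where bars are means, error bars are the SD (n = 3 and n = 2, cut off at 0) and points are libraries numbered by replicate. THBS1 went from 178.8 CPM or more to 26.5 CPM or less and FBLN1 from 84.3 CPM or more to 40.1 CPM or less, whereas POSTN in NTC was set by replicate 2.

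The other thrombospondins were present at much lower levels. THBS2, which like THBS1 can inhibit vessel growth, had 4, 0 and 1 counts in NTC and 8 and 5 in sgJUN#1. It was too sparse for the filter on low counts of the edgeR fit, and the edgeR fit without that filter did not call it. Pooled over a group, without TMM scaling, THBS2 was at 0.472 CPM in NTC (5 counts, exact 95% Poisson interval 0.153 to 1.10) and at 1.68 CPM in sgJUN#1 (13 counts, interval 0.893 to 2.87). These intervals cover counting error only, and they overlapped, which does not show that the levels were equal. Per library, both sgJUN#1 libraries (1.65 and 1.79 CPM) lay above all NTC libraries (at most 1.10 CPM), on few counts. THBS3, a thrombospondin of cartilage and bone, was at 3.30, 2.04 and 6.65 CPM in NTC, against 1.86 and 2.86 CPM in sgJUN#1. The groups overlapped, and its log2 fold change of −0.87 (SE 0.583, 95% interval −2.18 to 0.43) did not pass the test (edgeR adjusted p = 0.744). MTX1, which overlaps THBS3 on the opposite strand, had between 22 and 45 counts per library against 5 to 30 for THBS3. The remaining family members THBS4 and COMP had 8 and 2 counts in all 5 libraries together.

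Of all counts of the 5 thrombospondin genes, THBS1 held 98.1% (exact 95% binomial interval 96.9 to 98.9), 98.7% (97.6 to 99.4) and 95.8% (94.3 to 97.1) in the NTC libraries. It held 85.6% (78.4 to 91.1) and 85.1% (75.8 to 91.8) in the sgJUN#1 libraries. THBS1 was thus the main thrombospondin transcript in both groups. The other family genes together had 16, 9 and 35 counts in NTC and 19 and 13 in sgJUN#1.

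Among the 10 members, 8 had enough counts for the fit. Leaving out THBS1, none of the other 7 passed in edgeR, where 0.206% of all 13616 tested genes did. At an unadjusted p under 0.05 there was 1 of the 7 (FBLN1), where 8.38% of all tested genes were, and the 1 call by DESeq2 was again FBLN1. Their log2 fold changes were negative for 4 and positive for 3, with a median of −0.12, beside a median of −0.01 over all tested genes. Both sgJUN#1 libraries lay below all NTC libraries for 2 of the 8, THBS1 and FBLN1, where 12.8% of all tested genes did so. They lay above all NTC libraries for 1 of the 8, CD47, where 12.2% of all tested genes did so. THBS1 was used to choose the set, and the share for the rest is near the background.

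**Figure D2:**
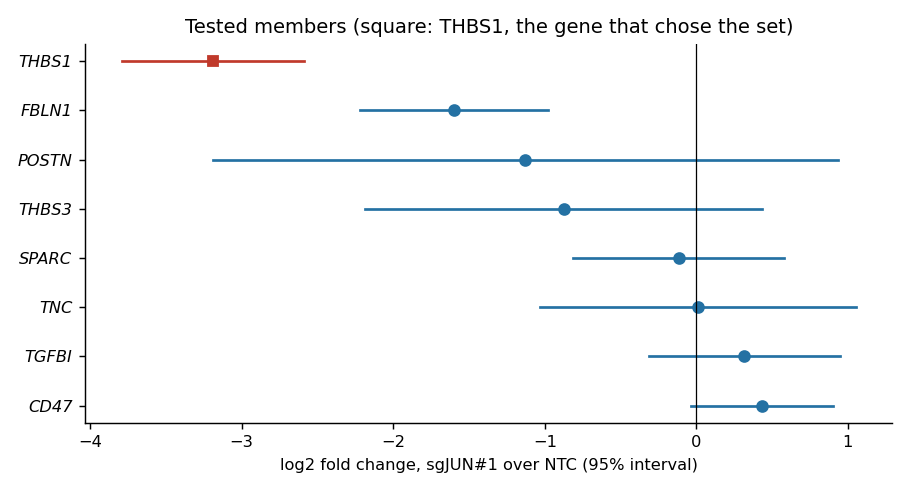
The log2 fold change of sgJUN#1 over NTC (horizontal axis) for the 8 tested members, with 95% intervals as lines; the square is THBS1. THBS1, on which the set was chosen, is a description with no test. The interval of FBLN1, which is not adjusted over genes, lies below 0, and those of the other 6 include it.

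FBLN1 (Entrez 2192, GRCh37 chromosome 22, 45898118 to 45997015, plus strand) encodes fibulin-1, a glycoprotein of basement membranes and elastic fibres that binds fibronectin. It had 364, 207 and 660 counts in NTC and 161 and 112 in sgJUN#1. The corresponding levels were 100.1, 84.3 and 146.4 CPM in NTC and 33.2 and 40.1 CPM in sgJUN#1. NTC replicate 3 was the highest, and the groups did not overlap. FBLN1 had an NTC mean of 110.3 ± 32.3 CPM (SD, n = 3) and an sgJUN#1 mean of 36.7 ± 4.84 CPM (SD, n = 2), a value 3.03-fold lower. This log2 difference of −1.60 (SE 0.276, 95% interval −2.22 to −0.98) did not pass over all genes (edgeR adjusted p = 0.0733). FBLN1 passed in 5 of 14 other fits. Among these were DESeq2 (adjusted p = 1.01e-04) and edgeR without a filter on low counts (adjusted p = 4.46e-04). It also passed in edgeR with the replicate number as a block (log2 fold change −1.34, adjusted p = 0.0220). The last were the edgeR fits without NTC replicate 2 (adjusted p = 0.0430) and without NTC replicate 3 (0.0234). NTC replicate 3 has no sgJUN#1 library of its number, so it adds nothing to the group difference in the block fit. The block fit and the fit without that library are therefore not separate evidence. The highest adjusted p was 0.322, in the edgeR fit without sgJUN#1 replicate 1. No annotated gene overlaps FBLN1.

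**Figure D3:**
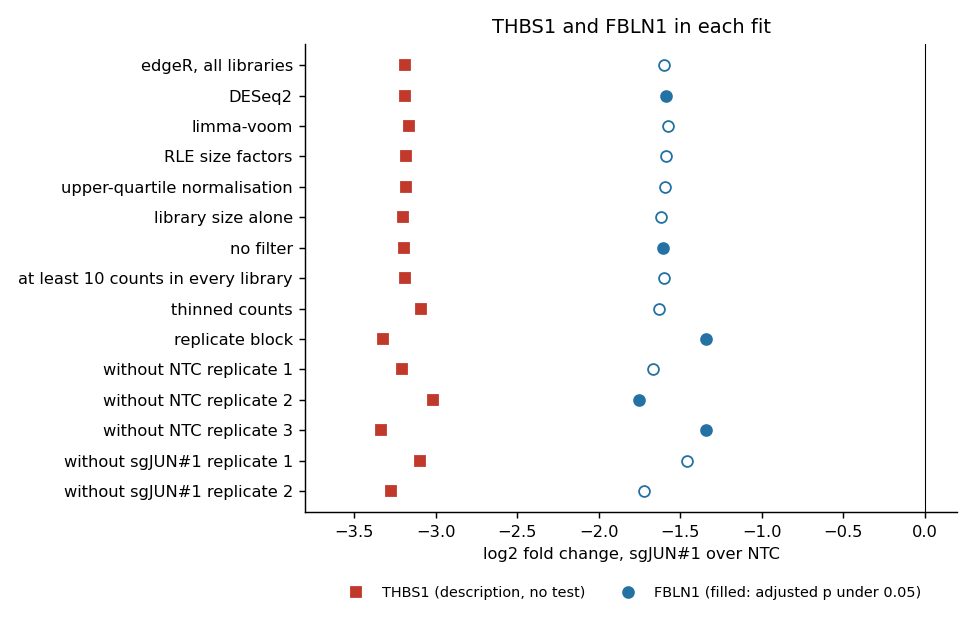
The log2 fold change of sgJUN#1 over NTC (horizontal axis) of THBS1 (squares) and FBLN1 (circles, filled where the adjusted p was under 0.05) in the edgeR fit of all libraries and in 14 others. THBS1, chosen for its fall in every fit, stayed between −3.34 and −3.02. FBLN1 stayed between −1.76 and −1.34 and is filled in 5 of the 14.

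SPARC, or osteonectin, is a collagen-binding glycoprotein that loosens cell adhesion. SPARC was at 47.9, 39.1 and 31.3 CPM in NTC, against 25.2 and 48.3 CPM in sgJUN#1, so the sgJUN#1 libraries were the lowest and the highest of the 5. The log2 fold change of −0.12 (SE 0.311, 95% interval −0.81 to 0.58) did not pass (edgeR adjusted p = 0.956), and its sign turned without NTC replicate 1 (0.05) or sgJUN#1 replicate 1 (0.30). The promoter of SPARC, like that of THBS1, holds GGAATG close to its start site. Both genes are also on a gene set that the study labels siYT, whose origin its main text does not describe. THBS1, and not SPARC, is besides on its list of the genes most induced by YAP and in 1 cluster of that list.

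TNC, the anti-adhesive glycoprotein tenascin-C, was at 3.03, 3.26 and 4.44 CPM in NTC, against 2.89 and 4.65 CPM in sgJUN#1. The groups overlapped, with a log2 fold change of 0.01 (SE 0.464, 95% interval −1.03 to 1.05, edgeR adjusted p = 0.997). DELEC1, which overlaps TNC on the other strand, had more counts than TNC in every library, up to 52 against 20, and whether the authors counted by strand is not stated.

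POSTN, or periostin, links collagen and integrins. POSTN was at 2.48, 12.6 and 1.55 CPM in NTC, against 2.89 and 1.43 CPM in sgJUN#1. NTC replicate 2 stood alone, at 8.13 times the lowest NTC library, and the other 4 libraries overlapped. Its fitted log2 fold change of −1.13 (SE 0.904, 95% interval −3.19 to 0.93) did not pass (edgeR adjusted p = 0.785), and POSTN fell below the filter on low counts in the fits without NTC replicate 2 or NTC replicate 3. SPP1, or osteopontin, a secreted ligand of integrins and CD44, had 1 count in each NTC library and none in either sgJUN#1 library. Pooled in the same way, it was at 0.283 CPM in NTC (exact 95% Poisson interval 0.0585 to 0.828). In sgJUN#1 it was at 0 CPM (0 counts, interval 0 to 0.476), so no difference was detectable at this depth.

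TGFBI encodes a secreted, integrin-binding protein induced by TGF-beta. It had the highest level of the set, at 2453, 3807 and 1862 CPM in NTC and 3015 and 3729 CPM in sgJUN#1. Since each transcript is counted near its 3′ end, these levels depend little on transcript length. Both sgJUN#1 libraries lay inside the NTC range. TGFBI had a log2 fold change of 0.32 (SE 0.281, 95% interval −0.32 to 0.95, edgeR adjusted p = 0.801), and leaving out single libraries moved it between 0.11 (without NTC replicate 3) and 0.64 (without NTC replicate 2).

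CD47, the membrane receptor of thrombospondin-1 and the ligand of SIRPA on phagocytes, was at 53.4, 59.0 and 43.9 CPM in NTC, against 67.3 and 73.0 CPM in sgJUN#1. Both sgJUN#1 libraries were above all 3 NTC libraries. Means were 52.1 ± 7.63 CPM (SD, n = 3) and 70.1 ± 4.03 CPM (SD, n = 2). The difference, 1.35-fold higher, gave a log2 fold change of 0.43 (SE 0.209, 95% interval −0.04 to 0.90) and did not pass (edgeR adjusted p = 0.634). It stayed between 0.32 and 0.53 over 14 other fits and passed in none.

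**Figure D4:**
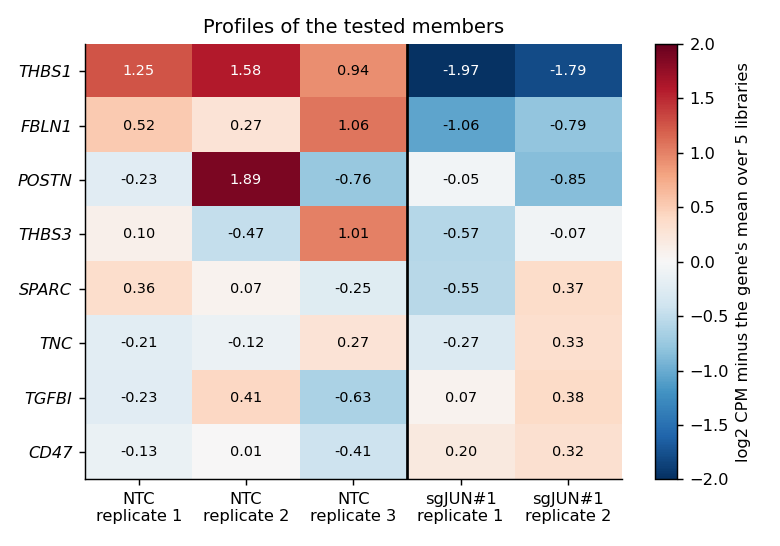
For each tested member (rows) and library (columns), the log2 CPM minus the mean of that gene over the 5 libraries, as colour and as a number. THBS1 and FBLN1 are positive in all 3 NTC and negative in both sgJUN#1 libraries, POSTN is highest in NTC replicate 2 (1.89), and THBS3 and FBLN1 are highest in NTC replicate 3 (1.01 and 1.06).

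Across the 5 libraries the members followed different patterns. The distance between 2 genes was taken as the root-mean-square difference of their log2 CPM after each gene was centred on its mean. TGFBI and CD47 were the closest pair at 0.22, and FBLN1 was the member closest to THBS1 at 0.91. Among 13615 other tested genes FBLN1 ranked 48 in closeness to THBS1, while POSTN ranked 1798, THBS3 2720, SPARC 4032, TNC 7868, TGFBI 11116 and CD47 11617. This distance includes the group difference on which THBS1 was chosen. Within NTC the order was opposite, with centred values in replicates 1 to 3 of 1.25, 1.58 and 0.94 for THBS1. Those of FBLN1 were 0.52, 0.27 and 1.06.

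The 5 genes closest to THBS1 were PLCB4 (0.37), LAMP3 (0.43), LEKR1 (0.47), PIAS4 (0.47) and DOK3 (0.51). PLCB4, a phospholipase C, was at 507.7, 503.5 and 627.7 CPM in NTC, against 82.6 and 71.6 CPM in sgJUN#1, or −2.82 on the log2 scale (SE 0.223). LEKR1 had an NTC mean of 222.7 ± 29.3 CPM (SD, n = 3) and an sgJUN#1 mean of 39.9 ± 5.79 CPM (SD, n = 2). PIAS4, a SUMO ligase, averaged 19.8 ± 3.49 and 3.90 ± 0.555 CPM. LAMP3, a lysosomal membrane protein, and DOK3, an adaptor of immune cell signalling, were each at about the level of a few counts in sgJUN#1, 1.05 CPM on average. These genes were picked for this likeness, so no test is given for them.

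Receptors and partners of the members were read from lists of 64 genes, of which 47 were tested and 1 passed in edgeR, beside 0.206% of all tested genes. At an unadjusted p under 0.05 were 12 of the 47, beside 8.38% of all tested genes. The sgJUN#1 libraries both lay below all NTC libraries for 9 of the 47 and above them for 10, beside 12.8% and 12.2% of all tested genes. The lists were written with earlier results of these data known, so these counts are a description. For the receptors of thrombospondins and ligands of CD47, 13 of 14 were tested and none passed in edgeR, with 4 higher and 2 lower at an unadjusted p under 0.05, 1 call by DESeq2 (LRP1) and a median log2 fold change of 0.17. LRP1, an endocytic receptor that takes up thrombospondin-1, was at 19.5, 14.7 and 29.5 CPM in NTC, against 3.10 and 9.66 CPM in sgJUN#1. Its log2 fold change of −1.85 (SE 0.491) had an edgeR adjusted p of 0.281 and was −1.15 without sgJUN#1 replicate 1 and −2.77 without sgJUN#1 replicate 2. ITGB1, the beta-1 integrin chain, was at 0.80 (SE 0.217, edgeR adjusted p = 0.286) on the same log2 scale. The syndecans SDC1 and SDC4, heparan sulphate proteoglycans that bind thrombospondin-1, were at 0.90 (SE 0.263, edgeR adjusted p = 0.344) and 0.62 (SE 0.192, edgeR adjusted p = 0.376).

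For the latent TGF-beta complex, which thrombospondin-1 can open, 7 of 8 genes were tested. None passed in edgeR or in DESeq2, none had an unadjusted p under 0.05, and the median log2 fold change was −0.16. TGFB2 was the most negative, at 56.7, 53.3 and 82.1 CPM in NTC and 16.7 and 55.5 CPM in sgJUN#1, so the groups overlapped (log2 fold change −0.86, SE 0.461). LTBP1, which anchors latent TGF-beta in the matrix, was at 0.45 (SE 0.277), and the corresponding values of LTBP3 and TGFB1 were −0.20 and −0.27.

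For the receptors of the other members, all 10 were tested and none passed in edgeR, with 1 higher and 1 lower at an unadjusted p under 0.05 and a median log2 fold change of −0.17. DESeq2 called none either. ANXA2, a membrane-associated annexin that binds tenascin-C, was at 1426, 1293 and 1056 CPM in NTC, against 2124 and 1986 CPM in sgJUN#1 (log2 fold change 0.71, SE 0.189, edgeR adjusted p = 0.281). TLR4, an innate immune receptor that recognises tenascin-C, had 15, 1 and 33 counts in NTC and 0 and 1 in sgJUN#1. CD44, a receptor of osteopontin, was at 0.46 on the log2 scale (edgeR adjusted p = 0.646), and EGFR at −0.68 (edgeR adjusted p = 0.634).

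Of 30 further matricellular genes 17 were tested, and EFEMP1 alone passed. EFEMP1, or fibulin-3, a relative of fibulin-1 in elastic fibres and basement membranes, had 4112, 1179 and 6266 counts in NTC and 548 and 322 in sgJUN#1. Its levels were 1131, 479.9 and 1390 CPM in NTC and 113.1 and 115.2 CPM in sgJUN#1. NTC replicate 2 was well under the other NTC libraries, yet above both sgJUN#1 libraries. EFEMP1 fell by 3.13 on the log2 scale (SE 0.440, 95% interval −4.14 to −2.12, edgeR adjusted p = 0.0458). This call was close to the threshold, and it held in 5 of 14 other fits. Without NTC replicate 1, NTC replicate 3, sgJUN#1 replicate 1 or sgJUN#1 replicate 2 the edgeR adjusted p was 0.217, 0.0530, 0.269 and 0.228, while the log2 fold change stayed between −3.47 and −2.70 in all 14.

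CCN1 and CCN2, which encode matricellular proteins and are classic YAP targets, did not pass. CCN1 was at 429.1, 1043 and 496.9 CPM in NTC, against 295.1 and 307.0 CPM in sgJUN#1 (log2 fold change −1.12, SE 0.364, edgeR adjusted p = 0.427). CCN2 was at 95.2, 166.1 and 59.2 CPM in NTC, against 59.9 and 55.8 CPM in sgJUN#1, where the groups overlapped (−0.87, SE 0.381, edgeR adjusted p = 0.590). NTC replicate 2 was the highest library for both, as it was for THBS1. SPOCK1, a proteoglycan related to SPARC, was at 0.63 (SE 0.229, edgeR adjusted p = 0.479). In all, 11 of these 17 genes had a negative and 6 a positive log2 fold change, with a median of −0.43.

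**Figure D5:**
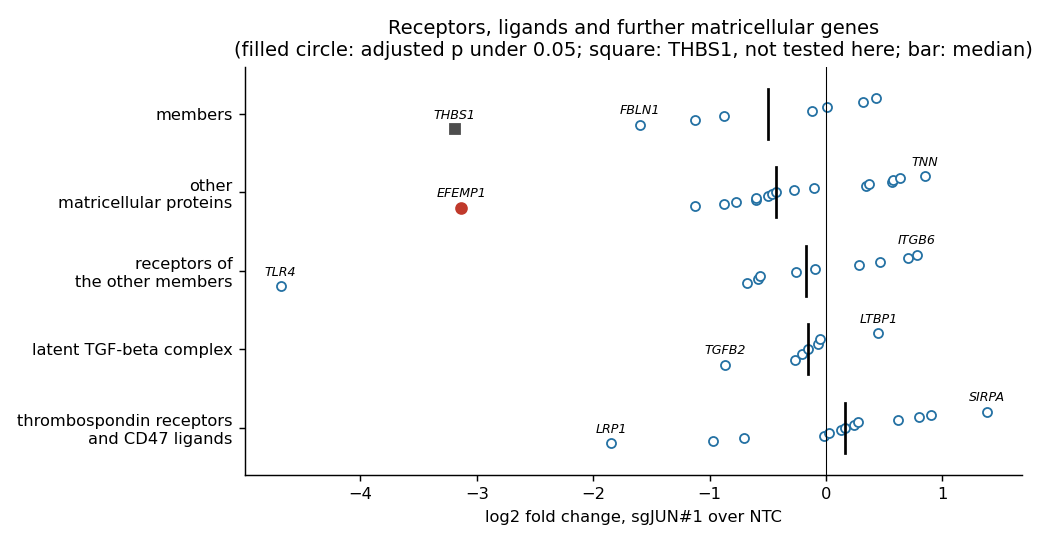
The log2 fold change of sgJUN#1 over NTC (horizontal axis) for the tested genes of each list and for the 8 tested members, 1 point per gene, with the median of each row as a bar; the extreme genes are named. EFEMP1 is the 1 list gene past the threshold, and TLR4, at the far left, rests on 1 count in sgJUN#1.

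Several of these proteins are made in large amounts by fibroblasts, so markers of other cell types were counted beside them. Of 8 fibroblast markers only DCN, PDGFRA and FAP had enough counts to be tested, with NTC means of 45.7, 185.8 and 99.0 CPM. COL1A1, another marker of such cells, was at 0.842 CPM in NTC, so the list did not point 1 way. The 8 summed to 262.9, 350.0 and 387.3 CPM in NTC and to 256.6 and 276.9 CPM in sgJUN#1, and none passed in edgeR or DESeq2 or had an unadjusted p under 0.05. None of the 4 endothelial, 4 leukocyte and 4 platelet markers passed in edgeR or DESeq2 either, with 1 leukocyte marker (CD68) and 1 platelet marker (PF4) higher at an unadjusted p under 0.05. The endothelial sum was between 9.35 and 14.9 CPM in all libraries. That of the leukocyte list was between 227.2 and 252.0 CPM, nearly all from CSF1R, while PTPRC was at 1.06 CPM in NTC. The platelet list, whose cells are a major source of thrombospondin-1, summed to between 1.65 and 5.70 CPM in NTC and to 5.99 and 17.2 CPM in sgJUN#1. The part of cell makeup in the members' levels was not tested, and in these bulk libraries fewer cells of a type cannot be told apart from less RNA per cell.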

How the data were processed

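Messenger RNA was measured in 3 NTC and 2 sgJUN#1 libraries of MCF10A SAM cells, grouped and numbered by the sample titles. The study calls its replicates biological without saying whether they were separate cultures or clones, and p-values measure the spread between these libraries. The authors used a QuantSeq 3′ forward kit, and the submitters' processing notes name Cutadapt 4.2, Bowtie2 2.3.5.1 and hg19. The methods of the study name the same tools, another version of Bowtie2, and countOverlaps. Annotation, strand, multiple alignments and molecular identifiers were not given in the sources used here. The deposited table holds raw, unnormalised counts under Entrez identifiers, and 23308 of 23459 were matched to NCBI symbols.

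Counts were tested in edgeR 4.0.16 by its quasi-likelihood F test (R 4.3.3; TMM, filterByExpr, robust, group as the only term), which kept 13616 genes. P-values were adjusted by Benjamini-Hochberg over all of them, with a threshold of 0.05. DESeq2 1.42.0, which the study used, limma-voom (limma 3.58.1), other scalings and filters, thinned counts, a replicate block and fits without each library were alternatives. The script was tested on simulated counts. The biological coefficient of variation was 22.3%. A count of 0 allows up to 3 counts, or 0.619 to 1.22 CPM per library. Poisson and binomial intervals cover counting error only, whereas those of fold changes include the spread between libraries.

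The members, lists, tests and cell markers were chosen with earlier results of these data known. The text names the 10 members, JUN, in each list the genes past the threshold plus, up to 4 in all, those with the largest F, and the 5 genes closest to THBS1. Markers, overlapping genes and THBS4 and COMP were named besides. Positions of genes are from GENCODE on GRCh37 and promoters from RefSeq on GRCh38.p14, where all 10 members matched.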

Additional observations from a re-analysis of the deposited data

How the results depend on the processing

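The log2 fold change of THBS1 stayed between −3.34 and −3.02 in 14 alternatives, which is a description, since the set was chosen on its fall in every fit. CD47 and TGFBI stayed positive in all 14 and FBLN1 negative. In place of 28 genes called, DESeq2 called 145, the fit without a filter 148, a minimum of 10 counts in every library 18, and fits without 1 library between 10 (without NTC replicate 1) and 57 (without NTC replicate 3). Of the members other than THBS1, 1 was called (FBLN1) with DESeq2, with no filter and with the replicate block, and 0 to 1 without 1 library. Of the list genes, DESeq2 called 2, while limma-voom, library size alone, upper-quartile normalisation, the minimum of 10 counts and thinned counts called 0, as did fits without 1 library in 4 of 5 cases (0 to 1). JUN passed with DESeq2 (3.24, adjusted p = 3.84e-11), and without 1 library its log2 fold change was 2.84 to 3.68, passing without NTC replicate 2 (adjusted p = 0.0144) and without NTC replicate 3 (0.00121). SPARC ranged from −0.64 to 0.30 without 1 library, turning sign without NTC replicate 1 (0.05) and without sgJUN#1 replicate 1 (0.30). TNC, near 0 throughout, turned sign with limma-voom (−0.050) and library size alone (−0.0038) and ranged from −0.31 to 0.36 without 1 library (−0.12 without NTC replicate 1, −0.044 without NTC replicate 2, −0.31 without sgJUN#1 replicate 2). The causes were not tested.

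Replicate numbers are not stated to mark a shared batch, so they were not taken to pair the libraries. The correlation over genes of the same-numbered differences between libraries was 0.01. It compares a single difference in each group and holds counting noise, so it cannot exclude a pairing. The library identifiers of same-numbered replicates are consecutive, and the labels do not say what this order means. With the replicate number as a block, 103 genes were called, FBLN1 was at −1.34 and JUN at 2.82 (edgeR adjusted p = 1.15e-04). NTC replicate 3 has no sgJUN#1 library of its number, so this fit draws its group difference from the other libraries. Without NTC replicate 3, FBLN1 was at −1.34 and JUN at 2.84, so the block fit and that fit are not separate evidence for either gene. Depth left THBS2 and SPP1 below the filter on low counts, and the edgeR fit without that filter called neither. THBS3, TNC and POSTN, with at most 31 counts in a library, have wide intervals.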
